A study of Mus musculus with 3 samples.

Results

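The cells described here are 271 of the 5023 cells of a single-cell RNA data set of the mouse testis, and they are the cells in which Cd27, Zp3r and Gm9758 stood highest. The deposited values of 12 gene trios, named A to L here, were averaged in each cell and z-scored over all cells, and a cell was kept if its highest score was that of trio E (Cd27, Zp3r and Gm9758). The study examined the long non-coding RNA gene Gm4665 by knockdown in the living testis. ICR mice received AAV9 vectors for a hairpin and a red fluorescent protein (RFP) by injection into the testis at postnatal day 21. One testis got the control hairpin (shCtrl) and its partner a hairpin against Gm4665. RFP-positive germ cells were sorted after somatic cells had been removed, and 10x Genomics 3' libraries (V2) were sequenced. There were 3 libraries, each described as cells of 3 mice: the control, hairpin 1 (shRNA1) and hairpin 2 (shRNA2). The columns of the hairpin libraries were matched to these labels by the last digit of their prefix alone, and if that match is wrong the hairpins change places in every value below. All of them, the control included, carried the vector, a hairpin and RFP. The labels used here name no age at sampling. Each group is 1 library, so no difference between groups below has a replicate check and no p-value is given. Every interval is a 95% interval that covers counting error only.

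Round spermatids are the haploid cells that follow the meiotic divisions. They build the acrosome, a vesicle of enzymes and binding proteins over the nucleus, and store mRNAs that are used only when the nucleus elongates and condenses. The transcription factor CREM switches on many of their genes, and the replacement of histones by transition proteins and then protamines comes later. Zp3r encodes a protein of the acrosomal matrix that binds the zona pellucida of the egg. Cd27 encodes a receptor of the tumour necrosis factor family best known from lymphocytes, where its ligand is CD70. Gm9758 is a predicted gene related to the Speer genes, a testis-expressed family whose proteins are rich in glutamate.

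Gm9758 has near-identical relatives. The first 60 coding bases (GENCODE vM21 on GRCm38) are given for Gm9758 and 4 relatives on chromosome 5, with capitals marking bases that differ from Gm9758.
Gm9758: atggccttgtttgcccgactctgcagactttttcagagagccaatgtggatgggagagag
Speer4e: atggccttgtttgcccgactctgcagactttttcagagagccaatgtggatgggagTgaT
Speer4c: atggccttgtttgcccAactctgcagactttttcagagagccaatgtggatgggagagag
Speer4f1: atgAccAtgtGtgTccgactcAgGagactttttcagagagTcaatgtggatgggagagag
Speer4f2: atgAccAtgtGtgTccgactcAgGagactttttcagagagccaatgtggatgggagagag
Speer4e differed at 2 and Speer4c at 1 of these 60 bases, Speer4f1 at 7 and Speer4f2 at 6. Speer4d, not shown, differed at 43 of the 60 at its annotated coding start. Over whole transcripts, 13 other genes had at least 95% identity to Gm9758 over at least 200 bases, and all 13 were in the deposited table. Speer4c, Speer4d and Speer4e are among them. Speer4f1 and Speer4f2 are not, and are shown because they stood out in these cells. The longest match to Speer4e was 98.0% identical over 964 bases. The level of Gm9758 is therefore uncertain, because the counting may have split reads among these copies.

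The stretches before the start sites of the 3 trio genes are shown because these genes chose the cells together. Each is the 250 bases upstream of the start site in RefSeq (GRCm38.p6), with capitals for any match to TGACGTCA (the full CRE site that CREM binds), TGACG (its core, which lies within the full site) or GTTGCC (a core that RFX factors bind), on either strand.
Cd27, chr6:125237028-125237277, minus strand: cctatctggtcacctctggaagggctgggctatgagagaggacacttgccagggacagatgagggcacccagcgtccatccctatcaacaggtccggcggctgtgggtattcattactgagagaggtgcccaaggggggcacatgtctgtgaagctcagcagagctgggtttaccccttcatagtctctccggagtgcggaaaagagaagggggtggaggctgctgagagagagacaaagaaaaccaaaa
Zp3r, chr1:130629607-130629856, minus strand: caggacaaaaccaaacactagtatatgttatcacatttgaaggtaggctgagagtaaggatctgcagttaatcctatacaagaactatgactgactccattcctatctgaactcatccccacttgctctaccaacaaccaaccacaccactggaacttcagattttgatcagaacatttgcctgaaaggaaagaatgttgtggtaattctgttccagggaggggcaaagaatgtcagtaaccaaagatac
Gm9758, chr5:14914890-14915139, minus strand: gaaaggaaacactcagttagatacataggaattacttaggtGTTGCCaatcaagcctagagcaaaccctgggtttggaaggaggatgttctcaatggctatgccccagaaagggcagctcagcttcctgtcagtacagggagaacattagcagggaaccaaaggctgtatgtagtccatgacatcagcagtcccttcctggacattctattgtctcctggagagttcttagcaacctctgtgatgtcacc
Cd27 and Zp3r held none of the 3 motifs, and Gm9758 held 1 GTTGCC. Of 32851 RefSeq promoters of this length, 1.55% held TGACGTCA, 17.8% held TGACG and 10.4% held GTTGCC. A match is a string of letters and not a bound site.

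The trio genes lie on 3 chromosomes (mm10 coordinates from GENCODE vM21). Cd27 (ENSMUSG00000030336) spans chr6:125232622-125237010 on the minus strand, inside the region of Vamp1 on the opposite strand, with 0 exon bases shared between them. Zp3r (ENSMUSG00000042554) spans chr1:130576713-130629621 and Gm9758 (ENSMUSG00000033219) chr5:14910122-14914899, both on the minus strand and both protein-coding. No source used here states whether counting was stranded, so reads from overlapping genes on opposite strands may not have been separated.

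The values of these 3 genes chose the cells and are given as a description only. Levels are unique molecular identifiers (UMIs, counted transcripts) summed over the member cells of a library and given per 1000000 UMIs of those cells (CPM). Zp3r stood at 498 CPM in the control and 575 and 469 with hairpins 1 and 2. Cd27 stood at 94.5, 141 and 78.1 CPM in the same order. Gm9758 stood at 40.1 CPM in the control and 91.5 and 80.5 with hairpins 1 and 2. Zp3r was thus the most abundant of the trio in UMIs in each library, and these 3' counts do not depend on transcript length in the way that full-length counts do. Gm9758 was also higher with both hairpins in all other cells pooled, by 1.25 and 1.07 on the log2 scale. All 3 trio genes had a UMI in 80 of the 271 cells, 2 of them in 140 and 1 of them in 51. Zp3r had a UMI in 40 of 40 control members, 134 of 136 with hairpin 1 and 94 of 95 with hairpin 2, Cd27 in 26, 83 and 45 of them, and Gm9758 in 17, 71 and 61. With each cell thinned to 7000 UMIs, Cd27 had a UMI in 45%, 52.9% and 35.8% of them and Gm9758 in 30%, 43.4% and 44.2%.

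**Figure D1:**
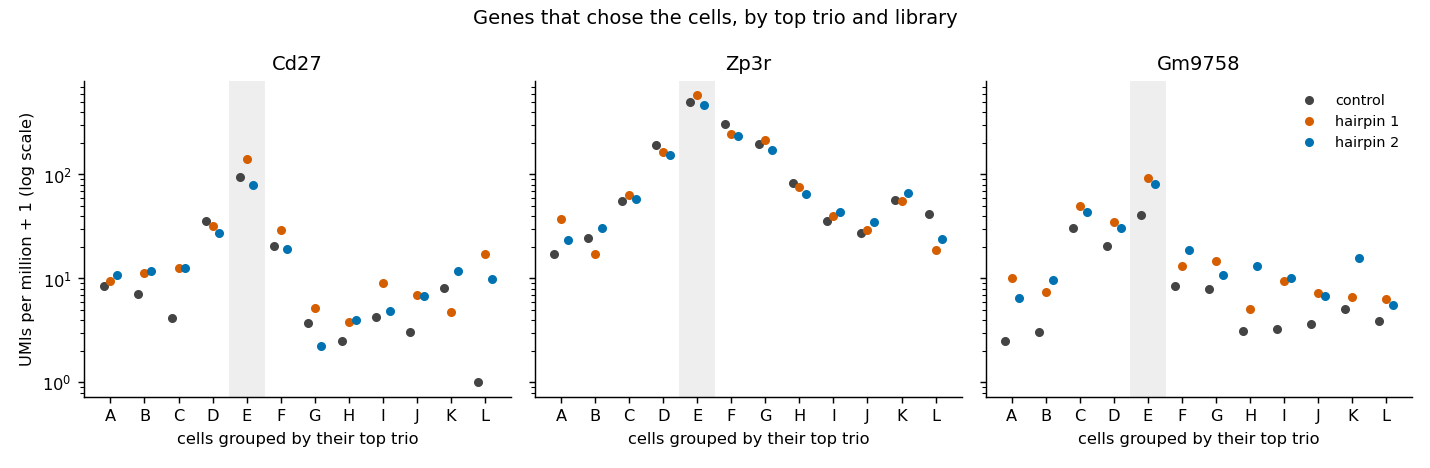
Cd27, Zp3r and Gm9758 in CPM plus 1 (log axis) in the cells of each of the 12 top trios, 1 point per library, with trio E shaded. Each gene is highest in trio E, where the rule put it, and Zp3r is spread widely, from trio D to trio G.

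The edge of the group was not sharp. Of the 271 members, 116 (42.8%) had a lead of under 0.5 in z over their second-highest trio. The 20 members just inside the threshold had a median trio E score of 1.32, and the 20 cells just outside had 1.35. Trio E was the second-highest score in 611 further cells. The second-highest trio of the members was F (Spam1, Plin2, Asb15) in 107 cells, D (Ssxb1, Ssxb2, Gm6588) in 41, I (Cstl1, Tex37, Prss58) in 26, G (Cd59b, Tmco5b, Slc36a3) in 23, J (Klk1b3, Glul, Bpifa3) in 22, C (Aurka, Ccna1, Dnaic2) in 21, K (Defb19, Cst9, Cst12) in 13 and another in the remaining cells. Over the genes compared, the summed profile of the members was closest to cells of top trio F (Pearson r = 0.96 over log2 CPM of 6864 genes), followed by D (0.90), G (0.90) and K (0.90). These profiles come from the same 3 libraries, and r is a description.

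The members were shallow cells. Their median was 12122 UMIs in the control and 8833.5 and 10137 with hairpins 1 and 2, against 19643, 16058 and 17268 in the other cells of these libraries. Their median over all libraries, 9892 UMIs, was the lowest of the 12 top trios. In total the members held 698289, 1508457 and 1254267 UMIs, so 1 UMI was worth 1.43, 0.66 and 0.80 CPM, and a count of 0 in a library allows a level of up to 4.30, 1.99 and 2.39 CPM (3 counts). In these summed cells, fewer cells that express a gene and less RNA of it per cell cannot be told apart. Among the libraries, 18 cell barcodes occurred in more than 1, and 4 members carried such a barcode.

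Markers that the rule did not use placed the members among spermatids. The 17 round spermatid markers, all of which passed the filter on low values, summed to 11056 (control), 12839 (hairpin 1) and 11824 CPM (hairpin 2). Cells of top trio F held 11772, 11385 and 11138 CPM of them, and cells of top trio D 8078, 7849 and 7800. Cells of the later trios I (11804, 11494 and 11072) and J (13895, 12813 and 12264) held similar sums. The list thus does not set round spermatids apart from later ones. Gsg1, a testis membrane protein gene, led this list with 2142, 2505 and 2309 CPM, and the chaperone gene Dnajb3 followed with 1602, 1800 and 1779.

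Markers of later spermatids were present as well. The 16 elongating and condensing spermatid markers summed to 66889, 93822 and 90034 CPM, above the 45734, 36202 and 38202 of trio F cells and below the 103758, 97726 and 94692 of trio G cells. Markers of earlier stages were present too, and since the lists hold different genes, each is set beside the same list in other cells. Pachytene to diplotene markers summed to 2513, 2169 and 2311 CPM, against 2514, 2808 and 2659 in trio F cells and 4867, 4650 and 4640 in trio C cells. Leptotene to zygotene markers summed to 471, 477 and 446, against 2117, 2294 and 2116 in trio B cells. Spermatogonia markers summed to 856, 651 and 777, against 1761, 1496 and 1576 in trio A cells and 496, 528 and 495 in trio B cells.

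Markers of other cell types were at or near 0, apart from leukocyte RNA. The 7 Leydig markers in the table had 0, 1 and 0 UMIs in the 3 libraries and 6 of them were at 0 in all members, among them the defining gene Star. The 12 myoid and endothelial markers summed to 15.8, 8.62 and 10.4 CPM with 7 at 0, the 6 red blood cell markers to 1.43, 0 and 3.99 CPM with 2 at 0, and the 13 Sertoli markers to 15.8, 32.5 and 52.6 CPM with 3 at 0. The 21 leukocyte markers in the table summed to 94.5 CPM in the control and 116 and 625 with hairpins 1 and 2. Most of the last value was Jchain, which encodes the joining chain of antibodies. It had 2, 13 and 563 UMIs, and 467 of the 563 (82.9%) came from 1 cell, without which its level with hairpin 2 was 77.1 CPM. The summed markers of the members thus held those of round and late spermatids, with some RNA of earlier-stage markers.

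Splitting the members by their second-highest trio showed this range. In 69 cells (25.5%) it was an earlier trio, A to D, in 130 (48.0%) it was F or G, and in 72 (26.6%) a trio from H to L. Prm1, the gene of protamine 1, stood at 19329 CPM in the first group over all libraries, 20855 in the second and 62932 in the third. Ccnb1, the gene of cyclin B1 of the meiotic divisions, ran the other way at 198, 141 and 78.4 CPM. Crem stood at 574, 554 and 283 CPM, and the acrosomal gene Acrv1 at 627, 850 and 569. Spaca1, whose product lies in the acrosomal membrane, was likewise highest in the middle group, at 1060 CPM against 743 and 730.

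**Figure D2:**
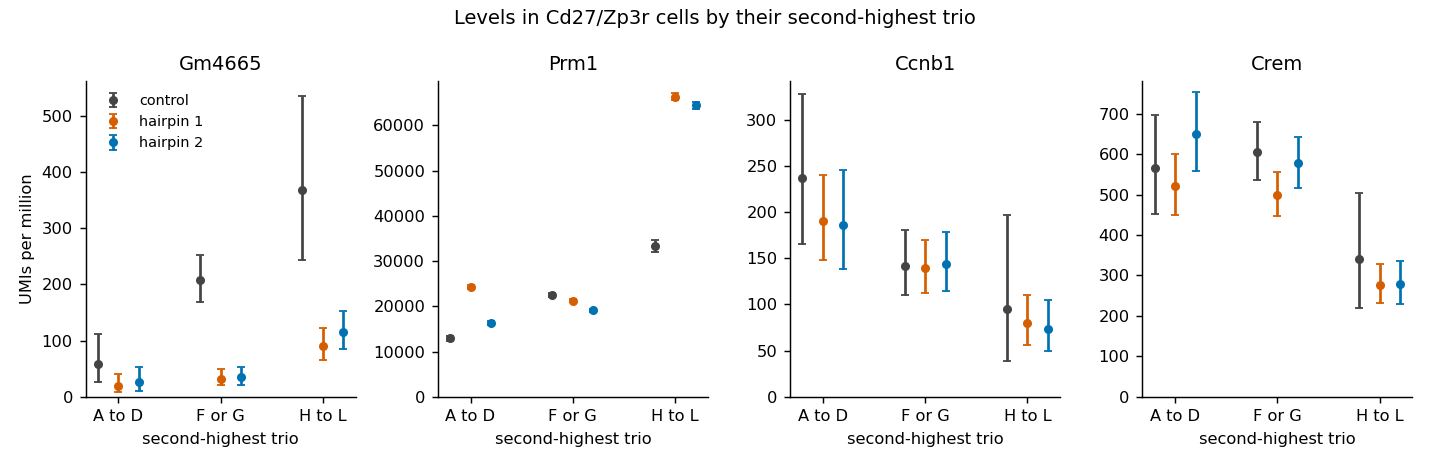
Gm4665, Prm1, Ccnb1 and Crem in CPM in the members, split by whether their second-highest trio was A to D, F or G, or H to L. Points are libraries and bars are exact Poisson 95% intervals for counting error only. Gm4665 and Prm1 stand highest in the H to L group in each library, and Ccnb1 lowest.

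The second-highest trio was not spread alike over the libraries. In the control it was F or G in 27 of 40 members (67.5%, exact interval 50.9 to 81.4), against 60 of 136 with hairpin 1 (44.1%, 35.6 to 52.9) and 43 of 95 with hairpin 2 (45.3%, 35.0 to 55.8). The interval of the control overlapped that of each hairpin. The second-highest trio was one of H to L in 6 control members, 38 with hairpin 1 and 28 with hairpin 2, and one of A to D in 7, 38 and 24. Levels that follow these groups, such as that of Prm1, are therefore given below also for the F or G group alone.

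Genes that stood out in the members were the 15 with the largest ratio to the highest of the other 11 top trios, taken in the library where that ratio was lowest. They are a description, since the same cells were chosen by expression. Cyp2c50, a cytochrome P450 gene, led with 10.0, 8.62 and 14.4 CPM by library from only 7, 13 and 18 UMIs. Speer4f1 had 47.3, 70.3 and 46.2 CPM and Speer4f2 had 53.0, 86.2 and 68.6 CPM. These Speer genes are 98.3% identical over 847 bases, so their separate levels are uncertain. Over all libraries, Speer4f2 stood at 73.1 CPM in the members, 31.1 in trio D cells, 31.7 in trio F cells and 25.6 in trio G cells.

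Further genes of this kind had known roles in germ cells or membranes. Spaca5 encodes a lysozyme-like acrosomal protein and stood at 120, 99.4 and 117 CPM. Cftr, the chloride channel gene mutated in cystic fibrosis, stood at 14.3, 17.2 and 10.4 CPM. Pnmal2 had 91.7, 123 and 97.3 CPM, the claudin gene Cldn34b2 had 78.8, 85.5 and 90.9, and the uncharacterised 4933421I07Rik had 48.7, 86.2 and 71.0. Cntn5, a contactin gene of cell adhesion, had 24.3, 43.1 and 27.9 CPM. Vamp1, a vesicle fusion gene that overlaps Cd27, stood at 21.5, 16.6 and 18.3 CPM.

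Other Speer genes were looked at after their values had been seen. Speer4e stood at 110, 227 and 181 CPM in the members and at 187 CPM over all libraries, against 104 in trio D cells, 40.9 in trio F cells and 30.6 in trio G cells. Speer3 stood at 57.2 CPM in the members and 25.5, 36.2 and 42.4 in those cells. Speer2, on chromosome 16, did not stand out, at 101 CPM against 158, 101 and 34.8. Among the close relatives of Gm9758, Gm21190 had 130, 352 and 316 CPM by library and Gm17019 had 27.2, 115 and 92.5. Speer4e, Gm21190 and Gm17019 are near-identical to Gm9758, whose values helped to choose the cells. If reads were split among these copies, their levels in the members follow in part from the rule, so they are a description only.

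The share of cells that were members was lowest in the control as the cells were chosen. It was 2.82% of 1418 control cells (40 cells, Clopper-Pearson interval 2.02 to 3.82), 7.85% of 1732 cells with hairpin 1 (136 cells, 6.63 to 9.22) and 5.07% of 1873 cells with hairpin 2 (95 cells, 4.12 to 6.17). These intervals do not overlap, but they hold no spread between animals or libraries. The control was lowest and hairpin 1 highest in every choice of cells run, but the gap between them differed. With z-scores taken within each library, the shares were 4.87%, 5.77% and 5.66%, and their intervals overlapped. Among cells of at least 10000 UMIs thinned to that depth, the shares were 3.86%, 7.90% and 5.71%, and with a lead of at least 0.5 in z they were 1.20%, 5.14% and 2.62%. Gm9758, which enters the choice, was higher in the other cells of the hairpin libraries too. With Gm9758 left out of the trio the shares were 3.67%, 8.43% and 4.70%, without Cd27 3.17%, 7.56% and 4.81%, and without Zp3r 2.33%, 8.78% and 4.81%.

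**Figure D3:**
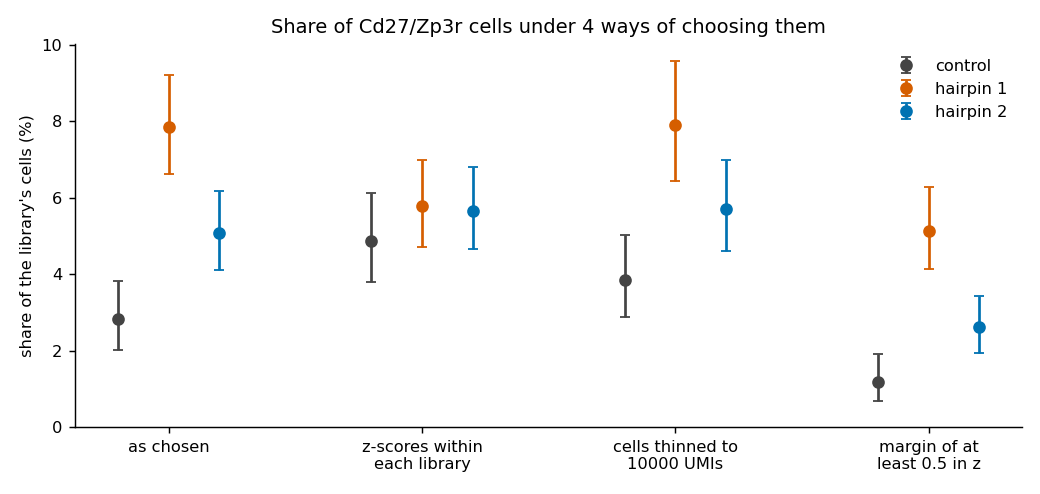
Share of each library's cells that were Cd27/Zp3r cells (percent) under 4 ways of choosing them, with exact binomial 95% intervals for counting error only. The control is lowest in each, but with z-scores within each library the 3 shares lie between 4.87% and 5.77% and the intervals overlap.

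The target gene was lower in the members with both hairpins. Gm4665 (ENSMUSG00000098127, chr9:115180404-115186058, minus strand) is annotated as antisense within Osbpl10 and shares 0 of its 561 exon bases with the exons of that gene. It stood at 192 CPM in the control (134 UMIs), 47.1 with hairpin 1 (71 UMIs) and 59.0 with hairpin 2 (74 UMIs). The log2 folds were -2.0 for hairpin 1 (interval of the ratio -2.46 to -1.60) and -1.68 for hairpin 2 (-2.13 to -1.28), where folds use CPM plus 1. In all other cells they were -2.54 and -1.96.

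Detection followed the same order. Gm4665 had a UMI in 38 of 40 control members (95%), 44 of 136 with hairpin 1 (32.4%) and 39 of 95 with hairpin 2 (41.1%). After thinning each cell to 7000 UMIs, which kept all members, the shares were 67.5%, 27.2% and 34.7%. In cells of top trio L (Cd52, Mzb1, Lyz2), a trio of leukocyte genes, it had a UMI in 65.0%, 9.57% and 14.9% of cells before thinning and in 35.0%, 4.26% and 8.29% after it, at median depths of 14002, 9700 and 13294 UMIs. In each library Gm4665 was lowest in the members with second trio A to D (59.1, 19.3 and 26.0 CPM), higher with F or G (207, 32.2 and 34.7) and highest with H to L (368, 90.8 and 115). Within the F or G group the log2 folds were -2.65 and -2.55.

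Genes near Gm4665 in position or in the study's interest differed less. Osbpl10, an oxysterol-binding protein gene that holds Gm4665 on its other strand, stood at 180, 145 and 140 CPM, with log2 folds of -0.32 and -0.37. Ip6k1, an inositol hexakisphosphate kinase gene, stood at 256, 183 and 147 CPM, with log2 folds of -0.48 and -0.79.

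For the comparison of all genes, 6864 genes had a mean of at least 10 CPM and 30 UMIs in the members, the trio genes left out. A gene counted as called at 2-fold or more on the log2 scale of CPM plus 1. With hairpin 1, 186 genes were higher (2.71 percent of those compared) and 233 lower (3.39 percent), 6.1 percent in either direction. With hairpin 2, 206 were higher (3 percent) and 222 lower (3.23 percent), 6.24 percent in either direction. The median log2 fold was -0.08 and -0.07. With TMM factors these medians moved to 0.05 and 0.04, and the counts to 268 higher and 156 lower with hairpin 1 and 267 higher and 150 lower with hairpin 2. With median-of-ratios factors they were 253 and 170, and 246 and 165, so which direction was the more frequent depended on the scaling. The hairpin comparisons share the control library, so likeness between them is not given as a result. Of the genes with the same sign with both hairpins, the 10 per direction with the largest smaller fold are named next. Most of them were under 10 CPM in the control or with a hairpin and passed the filter through the group where they were high. The filter, the ranking and the shared control thus favour large folds, and these genes are a description.

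**Figure D4:**
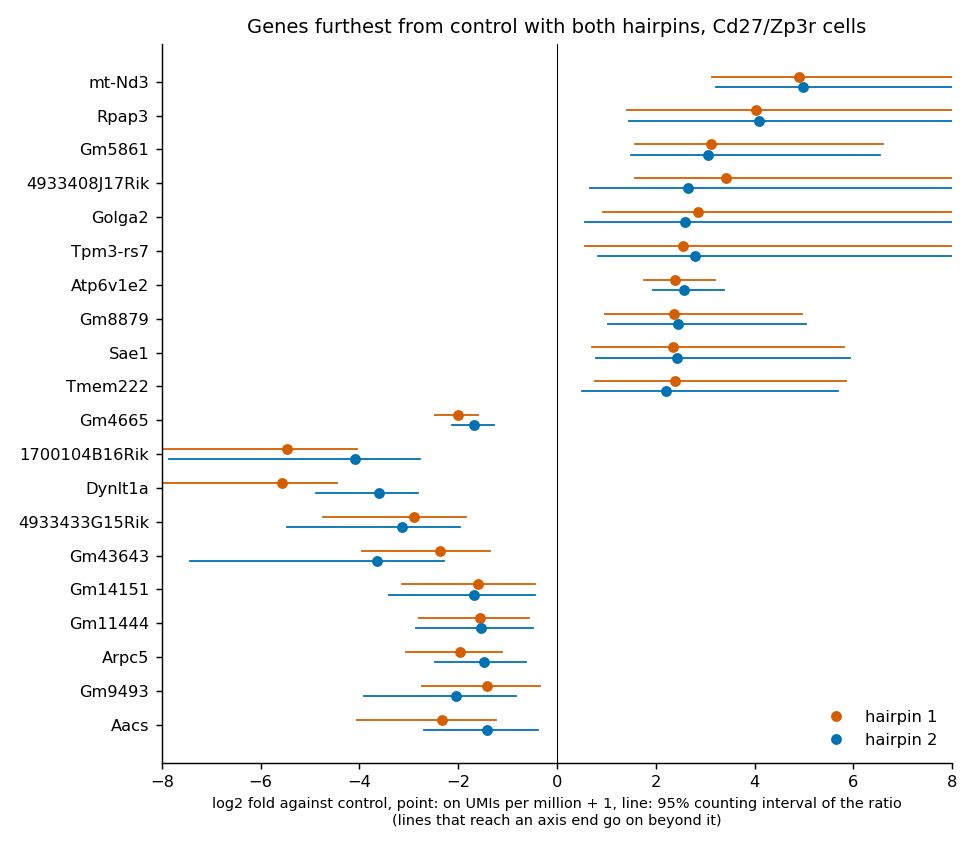
Log2 folds of the members against the control for the 20 genes named by rank, on CPM plus 1, with the exact 95% counting interval of the ratio as a line. Atp6v1e2 and Gm4665 have narrow intervals, and most other genes rest on few UMIs and have wide ones.

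Atp6v1e2 had the narrowest interval among the higher genes. It encodes a testis form of the E subunit of the proton pump that acidifies vesicles such as the acrosome, and it stood at 27.2 CPM in the control and 147 and 167 with hairpins 1 and 2. Its log2 folds were 2.39 (interval 1.75 to 3.19) and 2.58 (1.94 to 3.38). It was as much higher in all other cells, by 2.52 and 2.59.

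mt-Nd3, a mitochondrially encoded subunit of respiratory complex I, had the largest folds among the higher genes named by rank, with 1 UMI in the control and 108 and 95 with hairpins 1 and 2. These make 1.43, 71.6 and 75.7 CPM, and the intervals of the log2 ratio ran from 3.14 to 10.96 and from 3.21 to 11.04. It was found in 1, 47 and 30 member cells, and 30 of the 95 UMIs with hairpin 2 came from 1 cell. In all other cells mt-Nd3 was higher by 1.78 and 2.09 on the log2 scale. Rpap3, which encodes a co-chaperone that helps to assemble dynein and RNA polymerase complexes, had 0 UMIs in the control and 23 and 20 with the hairpins, at least 3.55-fold and 3.71-fold higher (3 counts as the floor of the control library).

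The remaining higher genes rested on 1 to 3 control UMIs. Golga2, the gene of a Golgi matrix protein, had 1, 25 and 17 UMIs, and the log2 ratio intervals ran from 0.92 to 8.89 and from 0.57 to 8.63. In all other cells the folds of Golga2 were -0.09 and 0.43. Sae1, a subunit of the enzyme that activates SUMO, had 2, 28 and 25 UMIs (0.71 to 5.81 and 0.80 to 5.92), and its folds in all other cells were 0.17 and 0.67. Tmem222 had 2, 29 and 21 UMIs and 4933408J17Rik had 1, 38 and 18. Tpm3-rs7 had 1, 20 and 20 UMIs, and it is 99.1% identical to Tpm3 over 2108 bases. Gm5861 had 2, 49 and 39 and Gm8879 had 3, 40 and 35, each with 14 near-identical genes, so the levels of these 3 are uncertain.

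Among the lower genes, Dynlt1a and 1700104B16Rik ranked first by the smaller of their folds with the hairpins. Dynlt1a, a dynein light chain gene, stood at 109 CPM in the control and 1.33 and 7.97 with hairpins 1 and 2 from 76, 2 and 10 UMIs. Its near copies Dynlt1f and Dynlt1c were 99.1% identical, so its level is uncertain. The non-coding gene 1700104B16Rik had 30, 0 and 2 UMIs, and its level in the control was at least 21.6-fold that with hairpin 1. In all other cells the log2 folds of Dynlt1a were -2.91 and -2.81, and 1700104B16Rik stood at 30.2, 1.03 and 0.76 CPM there.

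Arpc5, a subunit of the actin-branching Arp2/3 complex, had 41.5, 9.94 and 14.4 CPM. Its folds were -1.96 and -1.47 in the members, against -0.08 and 0.59 in all other cells, -1.74 and -1.06 in trio F cells and -2.52 and -0.98 in trio G cells. 4933433G15Rik stood at 35.8, 3.98 and 3.19 CPM and Gm43643 at 31.5, 5.30 and 1.59. Gm11444 had 27.2, 8.62 and 8.77 CPM from 19, 13 and 11 UMIs. Aacs, which encodes acetoacetyl-CoA synthetase, had 19, 7 and 12 UMIs, Gm14151 had 14, 9 and 7, and Gm9493 had 16, 12 and 6. The signs of these last 3 turned when only members with a lead of at least 0.5 in z were kept, and Gm14151 and Gm9493 have near-identical copies.

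RNA of the mitochondrial genome was the list whose median lay furthest above that of all genes. Of its 12 genes compared, 10 were at least 2-fold higher with hairpin 1 (background 2.71 percent) and 9 with hairpin 2 (3 percent), and none was 2-fold lower. Among those called, mt-Nd3 and mt-Nd4l had only 1 and 5 UMIs in the control and passed the filter through the hairpin libraries. Their calls add no support to the count. The list medians were 1.48 and 1.58 on the log2 scale, beside -0.08 and -0.07 for all genes. Summed, the list stood at 4504 CPM in the control and 11224 and 12611 with hairpins 1 and 2. mt-Co1, the gene of a cytochrome oxidase subunit, stood at 1181, 2455 and 2531 CPM, mt-Atp6 of the ATP synthase at 944, 2377 and 2971, and mt-Cytb at 274, 792 and 1030.

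Other cells differed in whether this list was higher. Cells of top trio F held 1982, 1408 and 1637 CPM of the list, and cells of top trio D 4434, 5196 and 5026. The list was higher with both hairpins in cells of top trio I (1676, 3332 and 2662 CPM) and J (1582, 2517 and 2311 CPM), and with hairpin 2 in those of H (1280, 1274 and 2506 CPM). It was also higher with both in cells of B (23829, 29335 and 28997 CPM), C (9366, 12069 and 10373 CPM) and G (1036, 1355 and 1140 CPM). In cells of top trio K it stood at 10792, 10469 and 9682 CPM. Across all other cells, mt-Co1 had log2 folds of 0.59 and 0.73, against 1.05 and 1.10 in the members and -0.48 and -0.57 in trio F cells. These cells were chosen by expression, so no test of the difference was made.

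The mitochondrial RNA was unevenly spread over the members. The median member held 0.088% of its UMIs from mitochondrial genes in the control and 0.69% and 0.42% with hairpins 1 and 2, with quartiles of 0.043 and 0.41, 0.16 and 1.61, and 0.12 and 2.09. Trio F cells had medians of 0.052%, 0.074% and 0.086%. At least 1% was reached by 7 of 40 control members, 56 of 136 with hairpin 1 and 35 of 95 with hairpin 2, so the libraries overlapped. In the F or G group the list stood at 1500, 10695 and 9356 CPM. In the A to D group (7, 38 and 24 cells) it stood at 12154, 14232 and 24178 CPM, so the gap differed between these groups. Among members with under 0.5% mitochondrial UMIs (31, 62 and 50 cells), a choice on the same RNA, the list medians still lay 0.68 above that of all genes with each hairpin. Depth moved with this result: the members of the hairpin libraries were shallower, as given above. Among members of 8000 to 15000 UMIs the list medians lay 0.98 and 1.43 above that of all genes. The part of depth or cell quality in this result was not tested.

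**Figure D5:**
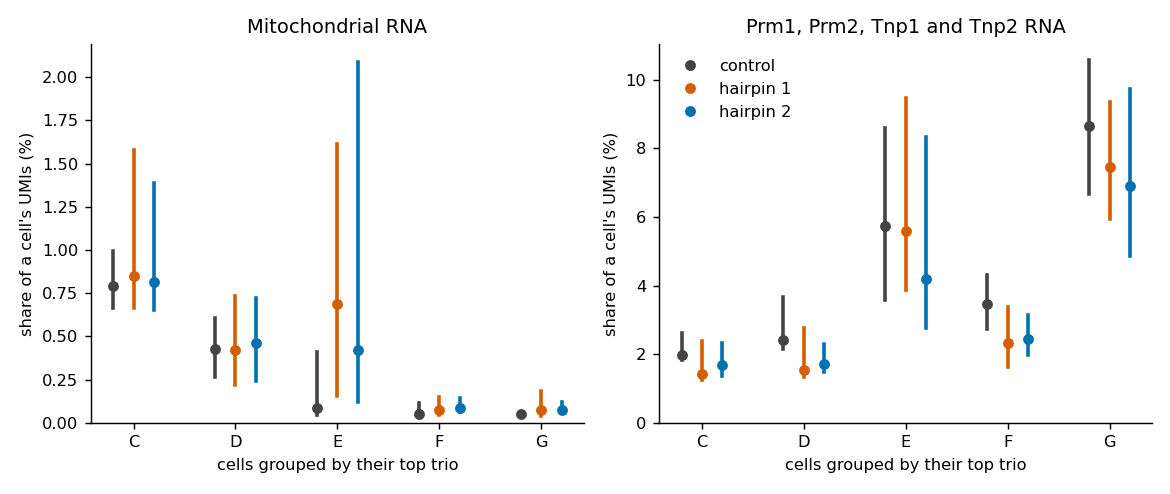
Share of a cell's UMIs from mitochondrial genes (left) and from Prm1, Prm2, Tnp1 and Tnp2 (right), in percent, for cells of top trios C to G, where E are the Cd27/Zp3r cells. Points are medians over cells and lines run from the first to the third quartile. In E the mitochondrial medians are 0.088%, 0.69% and 0.42%, and the lines of the 3 libraries overlap.

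Protamine and transition protein RNA was higher in the summed members with both hairpins, though none of Prm1, Prm2, Tnp1 and Tnp2 reached 2-fold. Prm1 stood at 21475 CPM in the control and 35800 and 33254 with hairpins 1 and 2, with log2 folds of 0.74 and 0.63. Tnp1, the gene of transition protein 1, stood at 8051, 12083 and 13171 CPM (0.59 and 0.71). Prm2 stood at 16669, 21093 and 20296 CPM (0.34 and 0.28), and Tnp2 at 7066, 10077 and 9530 (0.51 and 0.43).

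In the F or G group and after weighting by second trio, all 4 differences were smaller or had the other sign. In the A to D group (7, 38 and 24 cells) they were not smaller with hairpin 1 for Prm1, Tnp1 and Tnp2. There Prm1 stood at 12896, 24295 and 16269 CPM, Tnp1 at 4898, 8107 and 5267, and Tnp2 at 3802, 6943 and 3996. In the F or G group the log2 folds of Prm1 were -0.08 and -0.23, those of Prm2 -0.31 and -0.45, those of Tnp1 0.042 and -0.082, and those of Tnp2 -0.094 and -0.34. Weighting the 3 second-trio groups to the mix of the control gave 0.35 and 0.18 for Prm1, -0.097 and -0.24 for Prm2, 0.27 and 0.25 for Tnp1, and 0.16 and -0.035 for Tnp2. Per cell, these 4 genes made up a median of 5.73% of UMIs in the control and 5.59% and 4.18% with hairpins 1 and 2, and at least 10% in 5, 31 and 22 cells. The histone to protamine list had 18 genes compared, none of them 2-fold away, and medians of 0.30 and 0.18. In the F or G group its median lay 0.08 and 0.37 below that of all genes.

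In the acrosome list the medians lay close to the control, at 0.04 and -0.04. Of 29 genes compared none was 2-fold away with either hairpin. Beside a background of 2.71 to 3.39 percent per direction, that count is no result about these genes. Single folds ran from -0.66 to 0.79 with hairpin 1 and from -0.94 to 0.57 with hairpin 2. Crisp2, which encodes a cysteine-rich secretory protein of the acrosome and tail, stood at 2712, 2604 and 2342 CPM, and Acrbp, the gene of the proacrosin-binding protein, at 735, 1270 and 1087. Acrv1 stood at 620, 837 and 643 CPM (0.43 and 0.05). The 22 zona binding and gamete fusion genes also had none at 2-fold, likewise no result about them, with medians of 0.23 and -0.06. Zpbp stood at 765, 923 and 848 CPM and Adam3 at 662, 551 and 549.

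Genes of haploid transcription were a little lower in the median, at -0.21 and -0.19 over 22 genes, where 1 gene was 2-fold lower with hairpin 1 (background 3.39 percent). That gene was Rfx4, of the RFX family, at 60.1, 26.5 and 36.7 CPM. Crem stood at 569, 436 and 496 CPM (-0.38 and -0.20), and its fold with hairpin 2 changed sign, to 0.31, among members of 8000 to 15000 UMIs. The transcription factor gene Spz1 stood at 1100, 1222 and 1112 CPM.

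Meiotic genes were mostly within 2-fold. Of 20 genes of the meiotic divisions 1 was 2-fold lower with each hairpin (background 3.39 and 3.23 percent), Top2a with hairpin 1 (35.8, 13.3 and 23.9 CPM) and Incenp with hairpin 2 (32.9, 23.9 and 15.9 CPM), and the medians were -0.30 and -0.20. In the F or G group the list median lay 0.09 and 0.14 above that of all genes. The 12 synapsis and recombination genes had none at 2-fold and medians of -0.14 and -0.07.

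In the sperm tail lists 0 or 1 gene each was 2-fold lower and none higher, which is no result about these genes (background 3.39 percent lower with hairpin 1 and 3.23 percent with hairpin 2). Among 34 axoneme genes, 1 was lower with hairpin 1 (Dnah17, a dynein heavy chain gene, at 37.2, 15.9 and 21.5 CPM) and none with hairpin 2, with medians of -0.26 and -0.21. The 17 sheath and dense fibre genes and the 7 testis serine kinase genes had none, with medians of 0.04 and -0.08 and of 0.13 and 0.00. Of 26 intraflagellar and manchette transport genes, 1 was lower with hairpin 2, Clip4, at 71.6, 45.1 and 34.3 CPM. Akap3, an anchoring protein of the fibrous sheath, stood at 504, 372 and 284 CPM (-0.44 and -0.83).

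In the chromatoid body and piRNA list, 14 genes were compared and 2 were at least 2-fold higher with each hairpin (background 2.71 and 3 percent). They were Piwil1, the gene of a PIWI protein that binds piRNAs, at 8.59, 20.6 and 19.1 CPM, and the helicase gene Tdrd9 at 7.16, 17.9 and 15.9, from 6 and 5 control UMIs. Both were under 10 CPM in the control and passed the filter through the hairpin libraries, so their count supports nothing about the list. For Piwil1, 4 of the 6 control UMIs came from 1 cell. The median of the list was -0.28 and -0.21. Ddx4, a germ cell RNA helicase gene, stood at 299, 202 and 250 CPM.

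In the metabolic and protein turnover lists, 1 gene or none was called per direction and hairpin, against 2.71 to 3.39 percent of all genes. Of 21 glycolysis genes, Slc2a3, a glucose transporter gene, was 2-fold higher with hairpin 1 (51.6, 118 and 84.5 CPM) and Eno4, a sperm enolase gene, lower with both (63.0, 26.5 and 27.1 CPM). Ldhc, the testis lactate dehydrogenase, stood at 7464, 8630 and 8104 CPM. Of 20 translation control genes, Pabpc6 was 2-fold higher with both hairpins (14.3, 39.1 and 43.9 CPM), Dazl lower with hairpin 1 (35.8, 8.62 and 43.9) and Prkra lower with hairpin 2 (20, 13.9 and 7.97). For Dazl, 18 of the 25 control UMIs came from 1 cell, and without the highest cell of each library it stood at 10.2, 7.35 and 32.1 CPM, no longer 2-fold lower with hairpin 1. Of 23 ubiquitin and proteasome genes, Psma8, a proteasome subunit of meiotic cells, was higher with hairpin 1 (24.3, 70.3 and 25.5) and Cul3 lower with hairpin 2 (70.2, 49.1 and 27.1).

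Few genes of CD27 signalling passed the filter on low values. Of 32 genes of CD27 and tumour necrosis factor receptor signalling 2 passed it, beside 6864 of the 22843 genes in the deposited table. Of the 32, 10 had no UMI in any member, and the others had at least 1. The ligand gene Cd70 had 0 UMIs in the members of each library, which allows up to 4.30, 1.99 and 2.39 CPM. Siva1, whose product binds the tail of CD27, stood at 21.5, 18.6 and 27.1 CPM, and Birc2, an inhibitor of apoptosis, at 25.8, 31.2 and 27.1.

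Complement regulators were compared because Zp3r lies in their gene family. The table held 11 of them, and 5 passed the filter. Cd55b, a decay-accelerating factor gene of the testis, stood at 196, 150 and 160 CPM. Cd46, whose product lies on the acrosomal membrane, stood at 45.8, 28.5 and 12 CPM, 2-fold lower with hairpin 2 from 32, 43 and 15 UMIs. Clu was 2-fold higher with hairpin 2 from 5, 8 and 22 UMIs, and it is also a Sertoli cell marker.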

How the data were processed

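The deposited table holds natural log values, ln(1 + 10000 × UMIs of a gene / UMIs of the cell), for 22843 genes in 5023 cells, and every non-zero value came back to a whole UMI within 0.01. Alignment and counting used Cell Ranger 1.3.1 and the mm10 genome, and Seurat 2.0.0 was used, per the submitters' processing notes. No source used here states the strand, the annotation or the cell filters. The cells deposited had at least 7018 UMIs and 1637 genes. From the recovered UMIs, sums over member cells per library were scaled to CPM, and folds are log2 ratios of CPM plus 1. Genes with a mean of at least 10 CPM and 30 UMIs were compared. A gene counted as called at 2-fold, with no test, because each group is 1 library. Intervals are exact Poisson, Clopper-Pearson or exact conditional (95%), and UMIs of a library share cells, so they cover counting error only. A doublet caller (scanpy 1.11.5) marked 17 of 5023 cells and was taken not to have worked, so no cell was removed. Near-identical transcripts were found with blastn 2.17.0 in GENCODE vM21, to which 95.7% of the symbols matched.

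Named genes are the trio genes, Gm4665, Osbpl10 and Ip6k1, the first 10 per direction by the smaller fold of the hairpins where both had the same sign, 15 genes that stood out in these cells, up to 4 of the highest members per list with those past 2-fold, and Prm1, Prm2, Tnp1, Tnp2, Acrv1, Crem and Akap3. The cells, the lists and the rules were chosen with earlier results of these data known. Python 3.11.15, numpy 2.4.6, pandas 2.3.3, scipy 1.17.1 and matplotlib 3.10.9 were used.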

Additional observations from a re-analysis of the deposited data

Results flagged for a closer look

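Prm1, Prm2 and Tnp2 lay on opposite sides of the control in the Cd27/Zp3r cells and in the neighbouring cells of top trio F. With hairpin 1, the log2 fold was 0.74 for Prm1, 0.34 for Prm2 and 0.51 for Tnp2 in the Cd27/Zp3r cells. In trio F cells it was -0.30, -0.51 and -0.49 in the same order. With hairpin 2, Prm1, Prm2 and Tnp2 had 0.63, 0.28 and 0.43 in the Cd27/Zp3r cells and -0.27, -0.35 and -0.49 in trio F cells. In Cd27/Zp3r cells whose second-highest trio was F or G, Prm1 (-0.076 and -0.23), Prm2 (-0.31 and -0.45) and Tnp2 (-0.094 and -0.34) lay on the same side as in trio F cells. Where it was A to D, Prm1 (12896, 24295 and 16269 CPM) and Tnp2 (3802, 6943 and 3996 CPM) were above the control with both hairpins. Over 14 settings the sign changed in 1 with hairpin 1 and 2 with hairpin 2 for Prm1, in 5 and 5 for Prm2 and in 1 and 4 for Tnp2. The difference between the cell groups was not tested, since each group of a library comes from 1 library.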

How the results depend on the processing

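No paired analysis was possible because each group is 1 library, and for the same reason no replicate could be left out. The share of cells moved to 4.87% in the control and 5.77% with hairpin 1 with z-scores within each library, to 1.20%, 5.14% and 2.62% (hairpin 2) with a lead of at least 0.5 in z, and to 3.86% in the control after thinning. The counts of genes past 2-fold moved most. With no filter beyond 1 UMI, 1724 were higher and 1961 lower with hairpin 1, and 1950 and 1922 with hairpin 2. At a mean of at least 50 CPM they were 32 and 15, and 25 and 21. With 5 CPM added they were 99 and 122, and 120 and 106. Members with a lead of at least 0.5 gave 398 higher and 142 lower with hairpin 1 and 412 higher with hairpin 2. With z-scores within each library, 410 and 381 were higher. Members thinned to 10000 UMIs gave 122 higher with hairpin 2. 4 choices were made after seeing the data. Members of 8000 to 15000 UMIs gave 352 and 416 higher, members with under 0.5% mitochondrial UMIs 122 and 106 higher, and the F or G group 138 lower with hairpin 1. Leaving out the 2 hairpin 2 cells richest in Jchain moved none of these counts past 1.5 times. Of the 26 lists, 15 had a median above that of all genes with hairpin 2, against 7 of 24 with a lead of at least 0.5 and 9 of 24 in the F or G group.

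Gm4665 was past 2-fold lower in every setting run. With hairpin 1 its log2 fold was -2.69 with a lead of at least 0.5, -2.63 with z-scores within each library, -2.65 in the F or G group and -2.59 at 8000 to 15000 UMIs. With hairpin 2 it was -2.15 with z-scores within each library, -2.16 when weighted to the second trios of the control, -2.55 in the F or G group and -2.33 at 8000 to 15000 UMIs. The signs of Gm14151 (0.73 and 0.63), Gm9493 (0.73 and 0.27) and Aacs (2.99 and 4.16) turned with a lead of at least 0.5, which left 17 control cells, and that of Gm9493 turned to 0.075 with hairpin 1 at 8000 to 15000 UMIs. The cause was not tested. At this depth a gene of 10 CPM has about 7 control UMIs, so folds of such genes have wide intervals.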

Other observations

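Genes of the X chromosome held 1.46%, 1.26% and 1.41% of the UMIs of the Cd27/Zp3r cells (control, hairpin 1 and hairpin 2), and genes of the Y chromosome 0.090%, 0.054% and 0.064%. In trio F cells the X-linked shares were 1.56%, 1.26% and 1.49%, and in trio D cells 1.04%, 0.81% and 1.0%. In a list of germ cell genes of the X and Y chromosomes, 16 were compared. With hairpin 1, 1700013H16Rik and Zfy2 were 2-fold lower, and with hairpin 2 Cypt15 was (background 3.39 and 3.23 percent), and the medians were -0.30 and -0.24.

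Ribosomal protein genes summed to 42047, 41425 and 47986 CPM in the Cd27/Zp3r cells. Of the 80 compared, 1 was 2-fold higher and 3 lower with hairpin 1, and 2 were higher and 1 lower with hairpin 2, against 2.71 and 3.39 percent and 3 and 3.23 percent of all genes. The higher ones were Rps4x with both hairpins (1, 6 and 42 UMIs) and Rpl36a with hairpin 2 (4, 1 and 41 UMIs). Both passed the filter only through hairpin 2, where 1 cell held 13 of the 41 UMIs of Rpl36a and 11 of the 42 of Rps4x. The lower ones with hairpin 1 rested on single control cells: 1 cell held 4 of 4 control UMIs of Rpl36a, 9 of 11 of Rpl39 and 35 of 65 of Rpl14. Without the highest cell of each library, Rpl36a stood at 0 CPM and 0 CPM in the control and with hairpin 1, Rpl39 at 2.91 and 5.33, and Rpl14 at 43.6 and 40.8. The 10 immediate early and heat shock genes and the 8 apoptosis genes compared had none at 2-fold with either hairpin, with medians of -0.15 and 0.03 and of -0.16 and 0.21.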
